A study of Rattus norvegicus with 10 samples.

Results

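The 10 small RNA libraries of this series come in pairs, 2 libraries in each of 5 groups, and within every pair the libraries differed many-fold in their share of reads on miR-1-3p, a miRNA abundant in striated muscle. The library of a group with the larger share was taken as high and the other as low, which gave 5 high and 5 low libraries out of 10. The high and low libraries were thus chosen by measured miR-1-3p itself, and its own values are a description with no test. The comparison asks which of the other miRNAs went with that order inside the groups, with the group as a block, on miRNAs that reached 1 cpm in at least 5 libraries.

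All animals were female Wistar rats with collagen-induced arthritis (CIA), a model in which immunization with bovine type II collagen in adjuvant gives an arthritis of the paws, and none of the groups was healthy or unimmunized. T0 (CIA_B in the paper) was sampled before any therapy. AP_1h and AP_34d (MS_E and MS_A) were sampled at 1 h and 34 days of therapy by mechanical stimulation. In it a short needle was inserted and twirled at bilateral points of the back and leg, repeated every other day. PLA_1h and PLA_34d (PLA_E and PLA_A) were sampled at the same times of placebo, a saline injection into the peritoneum once a week. The 34-day libraries thus follow repeated treatment. The labels call the tissue muscle beneath the epidermis, in the paper it is subcutaneous tissue of the back with its muscle layer, and the text of the series also speaks of blood. Frozen tissue was extracted in a single batch according to the labels. Labels give neither the animal nor a library preparation or sequencing batch, so the p-values below measure the spread between these libraries only, and a difference in dissection, in the cells sampled and in preparation cannot be told apart here.

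A miRNA is cut from a hairpin in a longer transcript, and a mature strand guides the silencing of messages that pair with its seed, bases 2 to 8. Several hairpins can lie on the same transcript, and each hairpin can release a strand from either side, its 5p and its 3p arm. In striated muscle the transcripts that carry miR-1 also carry miR-133a, and the transcript that carries miR-206 also carries miR-133b. These miRNAs are known as products of muscle fibres, and miR-206 is known from skeletal muscle in particular.

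The sequences of the miRNAs on which the comparison turns are given here with the seed in capitals. They come from RefSeq, build GRCr8, which matched 323 of the 358 miRNAs tested (90.2%). The muscle miRNAs are shown first, because miR-1-3p and miR-206-3p share a seed and moved together while their transcript partners miR-133a-3p and miR-133b-3p did not follow to that extent.
miR-1-3p: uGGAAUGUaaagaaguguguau
miR-206-3p: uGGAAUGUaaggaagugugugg
miR-133a-3p: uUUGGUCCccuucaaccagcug
miR-133b-3p: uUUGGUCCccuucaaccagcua
miR-1-3p and miR-206-3p differ at 3 bases, A11G, A21G and U22G, with positions counted from 1 at the 5′ end and the base of miR-1-3p first. miR-133a-3p and miR-133b-3p differ at 1 base, G22A.
The next sequences are arms of 1 hairpin that went apart, of miR-3068 and of miR-532.
miR-3068-5p: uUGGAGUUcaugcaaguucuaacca
miR-3068-3p: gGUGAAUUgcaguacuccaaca
miR-532-5p: cAUGCCUUgaguguaggacugu
miR-532-3p: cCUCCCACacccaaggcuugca
The last are miR-143-3p and miR-145-5p, neighbours in the genome, and let-7b-5p and miR-98-5p, which carry the same seed, since each pair held a member that was higher and one that was lower.
miR-143-3p: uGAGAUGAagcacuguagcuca
miR-145-5p: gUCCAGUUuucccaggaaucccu
let-7b-5p: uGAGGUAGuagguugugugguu
miR-98-5p: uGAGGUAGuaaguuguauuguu
let-7b-5p and miR-98-5p differ at 3 bases, G11A, G17A and G19U, all outside the seed.

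Reads on miRNAs amounted to between 1513799 and 8926170 per library. Values below are in cpm, read counts relative to the library total scaled with the TMM factors of edgeR, which ran from 0.675 to 1.41, and on this scale 3 counts equal 2.60 cpm in the high T0 library, the shallowest, and between 0.366 and 0.828 cpm in the other 9. Small counts near these floors carry a large counting error on top of the spread between libraries. The order of depth differed between groups. The high library had fewer reads in T0, AP_1h and PLA_34d and more in PLA_1h and AP_34d, a mean log2 difference of -0.62 (exact two-sided permutation test within groups, p = 0.25, where 0.0625 is the smallest p that 5 pairs allow). No library was a copy of its partner, since the counts of the libraries of each group differed far beyond sampling noise.

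Within each group miR-1-3p made up 8.01, 12.5, 12.9, 14.3 and 10.6% of all reads in the high libraries of T0, AP_1h, PLA_1h, AP_34d and PLA_34d, the order used for all values that follow. In the low libraries it made up 1.08, 0.864, 1.10, 0.814 and 1.49%. The high library with the smallest share (T0, 8.01%) and the low library with the largest (PLA_34d, 1.49%) mark the edge of the split, and no library lay between them. In cpm the levels were 104886, 100684, 90905, 122986 and 80416 in the high and 10117, 11907, 11316, 12060 and 15567 in the low libraries, a fitted log2 difference of 3.04 by which the libraries had been chosen. The high library carried the replicate number 1 in T0, PLA_1h and PLA_34d and the number 2 in AP_1h and AP_34d. The other strand of the hairpin, miR-1-5p, had between 0 and 2 counts in every library.

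miR-206-3p, the skeletal muscle relative of miR-1, followed the split closely. Its level was 14928, 16100, 15860, 12034 and 14652 cpm in the high libraries and 1868, 1666, 1276, 1532 and 1143 cpm in the low libraries. The lowest high library was thus far above the highest low library, and the step within a group lay between 2.97 and 3.68 on the log2 scale. The fitted log2 difference of 3.31 (SE 0.21, adjusted p = 5.19e-05 by the quasi-likelihood F-test of edgeR, adjusted after Benjamini and Hochberg over the 358 miRNAs tested) was the one with the smallest adjusted p of all. The strand differs from miR-1-3p at only 3 bases (A11G, A21G and U22G). Whether reads of miR-1-3p were counted as miR-206-3p was not tested, so the miR-206-3p count may not be independent of the split. Every p given for a miRNA here speaks of its association with the miR-1-3p order inside the groups, and not of an effect of stimulation, placebo or time. In bulk tissue fewer cells of a type and less RNA per cell cannot be told apart.

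miR-133a-3p did not show this step. It stood at 117238, 93926, 70519, 128738 and 89188 cpm in the high libraries and at 77116, 67933, 118963, 123007 and 139388 cpm in the low libraries. The high library was the higher in 3 groups and the lower in 2, with a log2 difference of -0.05 (SE 0.27, adjusted p = 0.917 in edgeR), and the sign of so small a value changed with the scaling. Its minor arm miR-133a-5p differed by 0.01 (SE 0.33), again with a sign that depended on the scaling.

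miR-133b-3p lay between these extremes, with 4019, 3849, 5049, 4772 and 4644 cpm in the high and 2479, 2404, 3207, 3112 and 3899 cpm in the low libraries. It was higher in the high library of all 5 groups, by 0.58 on the log2 scale (SE 0.17), and just missed the threshold with an adjusted p of 0.0502 in edgeR, while the libraries of different groups overlapped. The rare miR-133b-5p, at a mean of 2.17 cpm, gave 1.67 (SE 0.74, adjusted p = 0.15 in edgeR). Of the 5 skeletal muscle miRNAs tested, therefore, 1 passed, where 16.5% of all 358 did (10.9% higher), so the count by itself is near the share over all miRNAs. The summed level of the 5 ranged from 91748 to 145997 cpm in the high and from 72227 to 145152 cpm in the low libraries. The defining markers of the labelled muscle were thus abundant in all 10 libraries, low ones included.

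**Figure D1:**
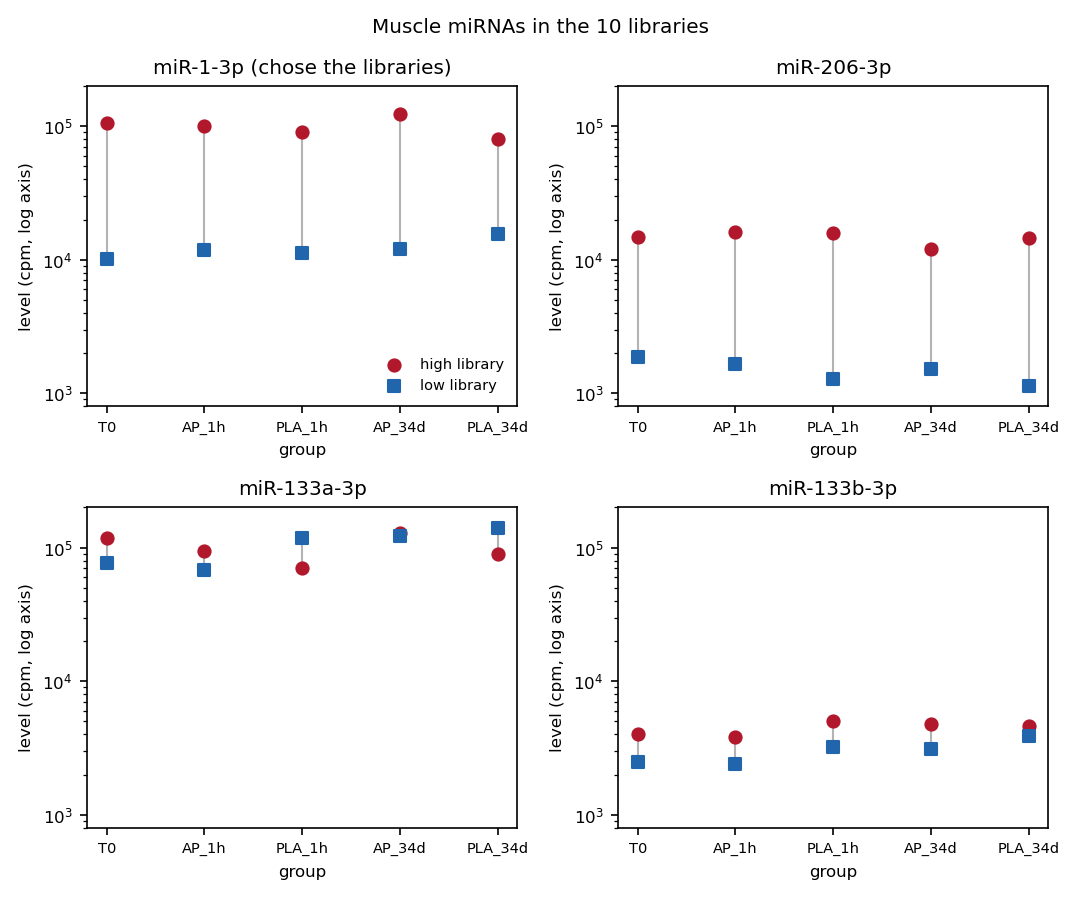
Levels of 4 muscle miRNAs in cpm (log axis) in the 5 groups, with the high library of each group as a red circle, the low library as a blue square and a line joining them. miR-206-3p, like miR-1-3p, shows a gap in every group (low libraries at or under 1868 cpm, high ones at or above 12034 cpm), whereas miR-133a-3p changes order between groups.

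The ratio of reads on 2 miRNAs inside a library does not depend on any scaling, although it is not a ratio of molecules. For miR-1-3p over miR-133a-3p the log2 ratio was -0.16, 0.10, 0.37, -0.07 and -0.15 in the high libraries and -2.93, -2.51, -3.39, -3.35 and -3.16 in the low ones. This ratio contains the measure that chose the libraries and is a description. In build GRCr8 miR-1-3p lies at chr18:2160339-2160360 and miR-133a-3p at chr18:2157886-2157907, both on the minus strand, and the hairpins together span 2542 bases. The other pair, miR-206-3p at chr9:30590747-30590768 and miR-133b-3p at chr9:30594629-30594650 on the plus strand, spans 3969 bases. Its log2 ratio of reads was 1.89, 2.06, 1.65, 1.33 and 1.66 in the high and -0.41, -0.53, -1.33, -1.02 and -1.77 in the low libraries. In both pairs all high libraries were above all low libraries.

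Over all miRNAs, miR-206-3p and the other muscle strands included, 59 of the 358 tested passed an adjusted p under 0.05 in edgeR (16.5%), of which 39 were higher (10.9%) and 20 lower (5.59%) in the high libraries, and 120 had an unadjusted p under 0.05. By the criteria of the study (over 2-fold, unadjusted p under 0.05) the number was 59 as well (16.5%), 45 higher and 14 lower. Differences on the log2 scale ran from -2.31 to 4.08 with a median of -0.04. All 16 of the called miRNAs that differed more than 4-fold were higher. Of the 59, 54 had the same sign in all 5 groups, which a call over 5 pairs favours. Of all 358, 62 were higher and 50 lower in all 5 groups. In 37 of the 59 no high library overlapped any low library, which was so for 51 of all 358. DESeq2 called 89, with 50 higher and 39 lower. The count in edgeR leaned on some of the pairs, as it was 33 without PLA_1h, 22 without AP_34d and 34 without PLA_34d. The direction of the calls leaned on the scaling. With total reads in place of TMM factors the median of all miRNAs moved up by 0.445 and the calls were 53 higher and 2 lower, so that higher and lower below are relative to the median miRNA of a library.

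**Figure D2:**
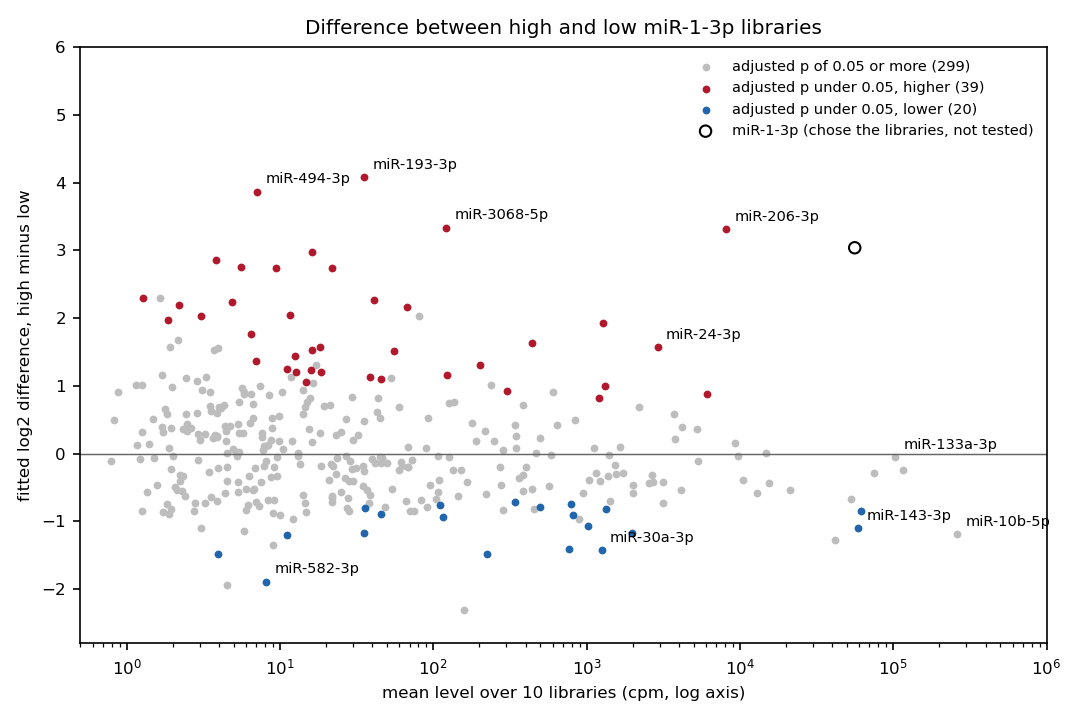
Fitted log2 difference, high minus low libraries, against the mean level over the 10 libraries in cpm (log axis), 1 point per miRNA. Red and blue mark the 39 higher and 20 lower miRNAs with an adjusted p under 0.05, and the open circle is miR-1-3p, which chose the libraries. Calls above 4-fold lie on the upper side only, most of them at low levels, with miR-206-3p standing alone at high level.

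Among the higher miRNAs, the largest difference was that of miR-193-3p, a miRNA known from brown fat. It had 7.79, 55.4, 85.1, 96.8 and 89.7 cpm in the high libraries and 3.38, 2.78, 1.66, 2.14 and 7.84 cpm in the low ones, a log2 difference of 4.08 (SE 0.63, adjusted p = 0.00508 in edgeR). The high T0 library stood apart from the other 4 high libraries and below the low PLA_34d library. miR-3068-5p, of little known function and assigned by RefSeq to the small nucleolar RNA gene Snora58 on chromosome 6, was more even over the high libraries. Its high libraries held 209, 231, 189, 225 and 236 cpm and its low libraries 22.2, 7.87, 22.1, 26.8 and 40.8 cpm, with a gap in every group (3.33, SE 0.35, adjusted p = 0.0015 in edgeR). miR-3577, also little studied, gave 15.6, 14.8, 12.9, 20.6 and 18.2 cpm against 2.65, 1.08, 3.31, 2.61 and 3.10 cpm, again with no overlap (2.73, SE 0.33, adjusted p = 0.00224 in edgeR).

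The 5 within-group differences nearest in size to those of miR-1-3p, which had chosen and ordered the libraries, were those of miR-206-3p (root mean square 0.698 on the log2 scale), miR-3577 (0.732), miR-3068-5p (0.792), miR-376b-5p (0.901) and miR-503-5p (0.936). This distance mainly reflects the size of a difference and not its course over the groups. The step of miR-206-3p was largest in PLA_34d (3.68), where that of miR-1-3p was smallest (2.37). miR-503-5p, of the miR-16 superfamily linked to arrest of the cell cycle, rested on few counts. It stood at 12.1, 7.49, 8.04, 11.7 and 8.72 cpm in the high and 0.588, 2.16, 2.48, 0.949 and 1.09 cpm in the low libraries, and no low library had more than 14 counts. The highest low library was still below the lowest high one (log2 difference 2.76, SE 0.46, adjusted p = 0.00666 in edgeR).

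Some of the 12 largest positive differences among called miRNAs with the same sign in all 5 groups lay in the imprinted Dlk1-Dio3 locus, a long array of miRNA hairpins expressed from the maternal chromosome and known from muscle development. A list of strands of the locus held 52 of the 358 miRNAs tested, and 7 of these were called higher (13.5%), near the 10.9% over all miRNAs. The list is not complete. Among others, miR-1193-3p, miR-6331 and miR-666-3p of the locus were tested but are not on it, and none of these was called. miR-376b-5p had 31.2, 54.5, 14.7, 23.5 and 20.4 cpm in the high against 6.03, 4.01, 4.41, 1.90 and 1.82 cpm in the low libraries, without overlap (2.98, SE 0.38). miR-411-3p had 81.4, 75.9, 71.7, 80.8 and 31.9 cpm against 15.3, 8.49, 20.1, 10.4 and 16.04 cpm, also without overlap (2.27, SE 0.36). The others were miR-494-3p (3.87, SE 0.64), miR-376a-5p (2.85, SE 0.49) and miR-377-3p (2.23, SE 0.41), for which no low library had more than 8, 8 and 29 counts. miR-494-3p overlapped, since the high T0 library held 1.73 cpm and the low AP_34d library 1.90 cpm. The last of the 12, miR-450a-3p (2.30, SE 0.52) and miR-33-3p (2.19, SE 0.61), are minor arms with means of 1.28 and 2.20 cpm, near the floor of 3 counts. miR-450a-3p had between 1 and 4 counts in the low libraries and reached 1 cpm in the 5 high libraries only, so it passed the filter through the libraries in which it is high and had to differ. It was the 1 miRNA of the 358 of which this was so, and its call is no support for anything here.

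Higher miRNAs outside these 12 that were abundant are named here after their values were seen. miR-24-3p, a product of both miR-23/27/24 clusters that is known to restrain proliferation, had 4756, 4157, 4200, 4026 and 4612 cpm in the high and 1420, 1242, 1706, 1721 and 1290 cpm in the low libraries. Each high library held more than any low library (1.57, SE 0.19, adjusted p = 0.00224 in edgeR). miR-152-3p, of the miR-148 family, had 484, 706, 891, 579 and 656 against 253, 167, 212, 233 and 199 cpm, again without overlap (1.63, SE 0.23). miR-16-5p, a widely expressed brake on the cell cycle, was at a mean of 7812 ± 1648 cpm in the high and 4331 ± 1399 cpm in the low libraries (SD, n = 5 each), a log2 difference of 0.88 (SE 0.21) with some overlap, and its seed relative miR-497-5p gave 1.31 (SE 0.29) without overlap.

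On the lower side, differences were smaller and several of the miRNAs were among the most abundant. miR-143-3p, known from smooth muscle and fibroblasts, had 53926, 26338, 38192, 36054 and 35742 cpm in the high and 73380, 77626, 101310, 67938 and 81349 cpm in the low libraries. It was lower in all 5 high libraries without overlap (-1.10, SE 0.23, adjusted p = 0.015 in edgeR). miR-151-3p, encoded in the gene of the focal adhesion kinase, had 1676, 1167, 1163, 1044 and 1047 cpm against 2573, 2228, 3325, 3095 and 2423 cpm, again apart in every group (-1.17, SE 0.20). miR-192-5p, known from liver and kidney, gave -0.91 (SE 0.21) and miR-182, of a sensory and epithelial cluster, gave -1.48 (SE 0.37), both without overlap.

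Both miR-30a arms and miR-30e-3p were lower as well. miR-30a-3p had 975, 459, 563, 760 and 596 cpm in the high and 2187, 874, 2027, 2265 and 1827 cpm in the low libraries, which overlapped only because the low AP_1h library held less than the high T0 library (-1.43, SE 0.20, adjusted p = 0.00335 in edgeR). miR-30e-3p had 756, 264, 303, 389 and 398 cpm against 1257, 474, 1301, 1335 and 1169 cpm, with an overlap of the same 2 libraries (-1.40, SE 0.25). The largest difference of a called lower miRNA was that of the scarce miR-582-3p, at 0.866, 3.59, 6.43, 2.56 and 2.99 cpm against 9.41, 6.33, 26.2, 9.49 and 13.5 cpm (-1.89, SE 0.36). The rest of the 12 largest negative differences among called miRNAs with the same sign in all 5 groups were miR-190b-5p (-1.48), miR-673-3p (-1.20), miR-34a-5p of the p53 response (-1.17), miR-532-5p (-0.93) and miR-181a-1-3p (-0.89). miR-28-3p (-1.06, SE 0.25) was called too, but was higher in the high library of 1 group.

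**Figure D3:**
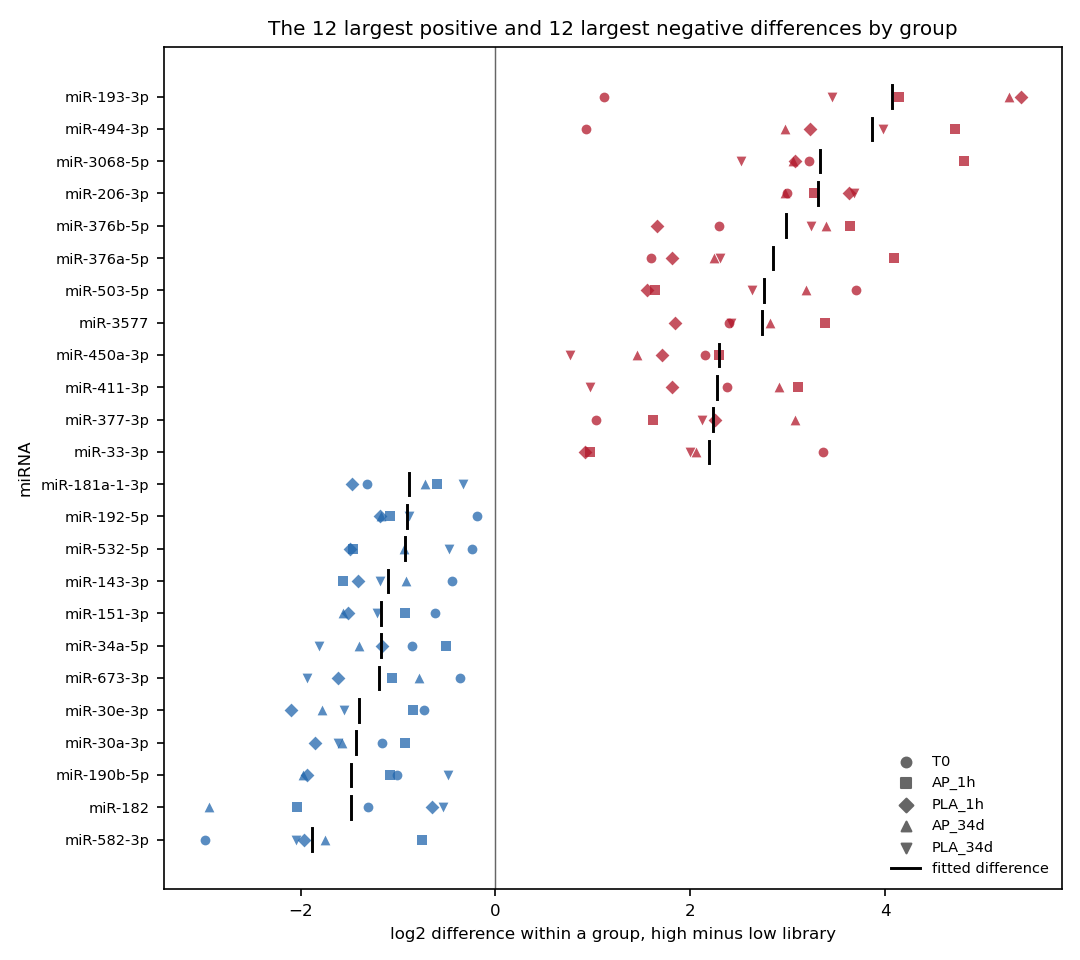
Log2 difference between the high and the low library within each group for the 12 largest positive and 12 largest negative differences among miRNAs that were called and had the same sign in all 5 groups, chosen on these values. Marker shape gives the group and the black bar the fitted difference. Among the 12 higher ones miR-206-3p has the narrowest range over the groups (2.97 to 3.68), while miR-193-3p and miR-494-3p have the widest and are smallest in T0.

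How far the difference was shared by the groups could be seen by calling miRNAs in 4 groups and reading their sign in the group that was left out, whose libraries were then split by their own miR-1-3p. Of the miRNAs called without T0, 48 of 61 had the same sign in T0, and for AP_1h, PLA_1h, AP_34d and PLA_34d the counts were 43 of 49, 28 of 33, 22 of 22 and 33 of 34. Over all 358 miRNAs the sign was the same for 66.5 to 80.7%. In all 5 fits of 4 groups 18 miRNAs were called, among them miR-206-3p, miR-3068-5p, miR-24-3p, miR-152-3p, miR-872-3p, miR-425-3p, miR-151-3p, miR-30a-3p and miR-30e-3p. Across the 358 miRNAs the within-group differences of any 2 groups, which share no library, correlated with a Pearson r between 0.217 and 0.583 (median 0.448), and between 0.398 and 0.819 over the 104 miRNAs with a mean of at least 100 cpm. These are correlations across miRNAs of the same libraries, which are no independent replicates, and T0 with PLA_1h gave the lowest.

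Of the slow-twitch miRNAs, which are encoded in introns of myosin heavy chain genes, the strands with many counts varied between groups. miR-499-5p had 313, 34.8, 147, 56.0 and 336 cpm in the high and 153, 23.8, 57.4, 156 and 79.9 cpm in the low libraries, higher in 4 of 5 groups (0.76, SE 0.47, adjusted p = 0.285 in edgeR). miR-208b-3p had 513, 59.6, 222, 83.1 and 690 cpm against 433, 32.7, 55.7, 247 and 61.8 cpm (1.01, SE 0.66, adjusted p = 0.31 in edgeR). Both were lower in the high library of AP_34d only. The scarce miR-499-3p, at a mean of 1.87 cpm, was called (1.97, SE 0.45). Thus 1 of 3 slow-twitch members tested passed, where 16.5% of all miRNAs did, and nothing particular to the list can be read from a call at so low a level.

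Markers of other cell types were read from lists, each of which was set beside the median of -0.04 over all miRNAs tested and the 10.9 and 5.59% called higher and lower among them. Of 4 smooth muscle strands 1 was higher and 1 lower. Of 13 leukocyte strands 1 was higher, miR-150-5p of mature lymphocytes, and 1 lower, miR-181a-1-3p. miR-150-5p had 572, 1381, 1156, 1488 and 6222 cpm in the high and 343, 256, 456, 473 and 527 cpm in the low libraries, with the high PLA_34d library far above the rest (1.93, SE 0.39, adjusted p = 0.0137 in edgeR). That library also held 636 cpm of the leukocyte miR-142-3p against at most 49.7 cpm in the other 9, and this miRNA was not called (2.03, SE 0.60, adjusted p = 0.0502 in edgeR). The whole leukocyte list summed to between 14574 and 30279 cpm in the high and between 18583 and 28184 cpm in the low libraries.

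None of the 9 epithelial, 2 ciliated epithelium, 3 fibroblast, 5 endothelial, 3 erythroid and 2 cartilage strands tested passed in edgeR, 24 in all, of which 3 had an unadjusted p under 0.05. DESeq2 and limma-voom each called 1 of them, the cartilage strand miR-140-5p (1.04, SE 0.35 in edgeR). The summed epithelial level was 45.9 to 155 cpm in the high and 65.4 to 560 cpm in the low libraries. For the ciliated list it was 0.866 to 14.7 cpm in the high and 11.9 to 1755 cpm in the low libraries, and the upper end was the low AP_1h library, with 1497 cpm of miR-34c-5p against at most 17.6 cpm elsewhere. miR-34c-5p gave the most negative difference of all (-2.31, SE 1.10, adjusted p = 0.17 in edgeR), carried by that library. The part that other cell types have in the differences was not tested.

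The miR-29 family, which represses collagen messages, had 2 of 6 strands higher, both minor arms. miR-29c-5p had 39.8, 55.3, 48.1, 69.6 and 51.6 cpm in the high against 15.9, 21.2, 22.9, 40.1 and 23.7 cpm in the low libraries (1.14, SE 0.21), and miR-29a-5p gave 1.26 (SE 0.35), while the main arms miR-29a-3p (-0.02, SE 0.24) and miR-29c-3p (0.71, SE 0.27) were not called. Of the 11 miR-30 strands 1 was higher and 4 were lower, the most of any list in the lower direction. Here miR-30b-5p, with 1014, 2663, 1341, 2293 and 1621 against 632, 1055, 692, 1005 and 932 cpm, was higher in each group (0.99, SE 0.18), whereas miR-30a-5p (-0.84, SE 0.23) and miR-30c-2-3p (-0.76, SE 0.21) were lower. The adipose and metabolic list had 1 of 6 higher (miR-193-3p), and of the miR-17/92 clusters, known from dividing cells, 1 of 15 was lower (miR-25-3p, -0.74, SE 0.20).

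Of the 52 Dlk1-Dio3 strands on the list 1 was lower, and the median was 0.35. The higher ones not yet named were miR-539-5p (1.77, SE 0.46) and miR-382-5p (1.58, SE 0.46), each higher in 4 of 5 groups, and the lower strand was miR-673-3p (-1.20, SE 0.32). The summed level of these listed strands overlapped, with 2227 to 5967 cpm in the high and 2657 to 5833 cpm in the low libraries. Of 8 neural strands 1 was higher, miR-138-5p, with 5.19, 28.1, 63.3, 33.6 and 60.0 against 11.9, 2.93, 4.14, 4.27 and 5.29 cpm. T0 went the other way for this miRNA (2.74, SE 0.69).

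**Figure D4:**
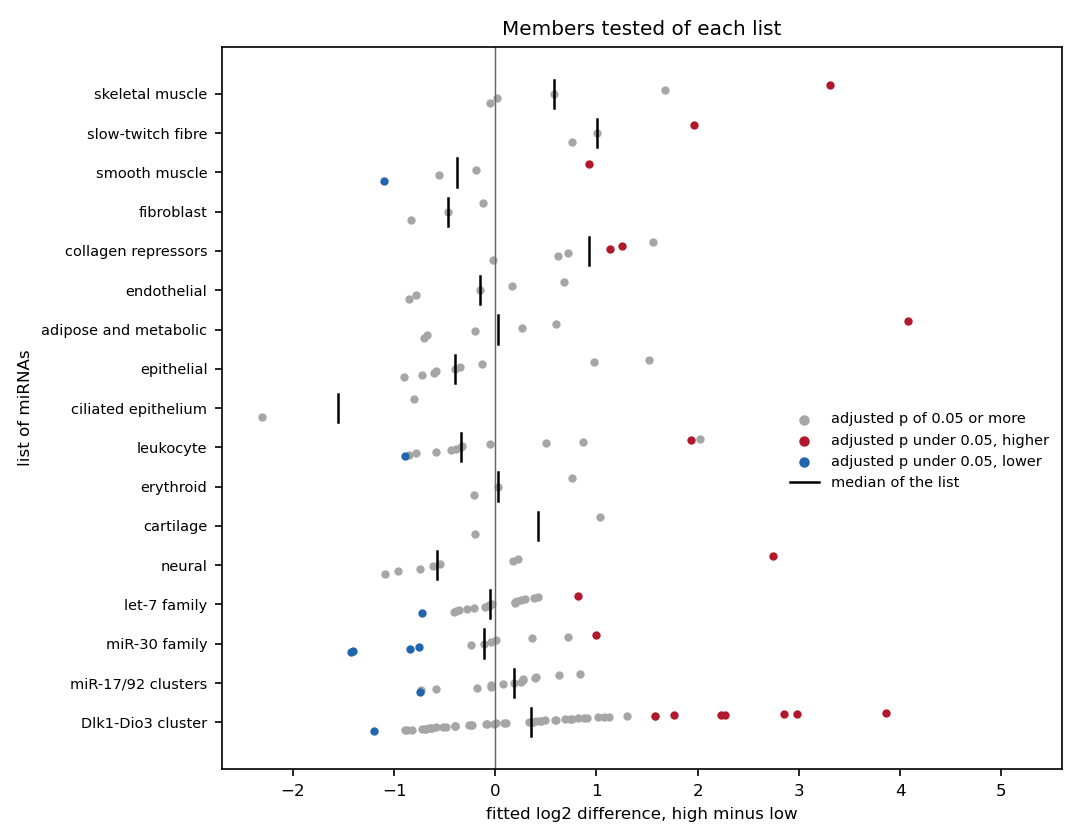
Fitted log2 differences, high minus low, of the tested members of 17 lists of miRNAs, 1 point per miRNA, with calls in red (higher) and blue (lower) and the list's median as a black bar. Called members are scattered over lists, and most lists hold members on both sides of 0.

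The arms of a hairpin come from the same precursor molecule, and 85 hairpins had both arms among the miRNAs tested. Their differences were nearly unrelated across hairpins, with a Pearson r of 0.152 and the same sign in 40 of 85 (47.1%). In many hairpins the lower arm was scarce, down to a mean of 0.83 cpm for miR-485. Noise at few counts pulls r towards 0, and its part was not tested. Of these 170 arms 31 were called (18.2%), near the 16.5% over all miRNAs. Both arms were called in 4 hairpins, of which 3 went the same way (miR-125b with miR-125b-2-3p, miR-30a and miR-425). Another miR-125b hairpin, on chromosome 8, gives miR-125b-1-3p, so reads of miR-125b-5p may not all come from the hairpin of miR-125b-2-3p. The log2 ratio of the 5p to the 3p arm needs no scaling. It shifted in the same direction in all 5 groups for 29 of the 85 hairpins, in 19 of these by more than 2-fold on average. Of all 358 miRNAs, 62 were higher and 50 lower in the high library of all 5 groups, a share near that of the 29.

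miR-3068 showed the widest shift. While miR-3068-5p rose as given above, miR-3068-3p stood at 102, 76.4, 96.5, 100.1 and 79.7 cpm in the high and 112, 63.6, 145, 118 and 192 cpm in the low libraries (-0.39), and the log2 ratio moved by 3.73 ± 0.50 (SD over 5 groups). In miR-532 the arms were called in opposite directions. miR-532-5p had 131, 63.9, 74.0, 52.2 and 83.9 cpm against 154, 177, 208, 101 and 117 cpm, and miR-532-3p had 26.8, 29.8, 12.6, 17.9 and 25.4 cpm against 10.1, 9.88, 11.3, 6.17 and 9.12 cpm. The log2 ratio of its reads was 2.28, 1.10, 2.55, 1.54 and 1.72 in the high and 3.93, 4.16, 4.20, 4.03 and 3.68 in the low libraries, without overlap.

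Similar shifts without a call in the partner arm were found for miR-152 (5p over 3p by -2.55 ± 0.74, SD over 5 groups), miR-411 (-2.26 ± 0.36), miR-872 (-2.04 ± 0.53) and miR-503 (2.03 ± 1.02). The 3p arm of miR-872 had 44.1, 119.6, 103, 139 and 153 cpm in the high and 19.9, 17.1, 25.7, 28.7 and 27.2 cpm in the low libraries, whereas its 5p arm had 43.3, 63.6, 77.9, 74.1 and 98.1 against 50.2, 56.2, 60.2, 74.7 and 89.7 cpm. The 5p arm was thus alike in range in both sets of libraries and the 3p arm was not. For miR-145, the 5p arm was called and the 3p arm gave -0.56 (SE 0.25), a shift of 1.48 ± 0.80.

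**Figure D5:**
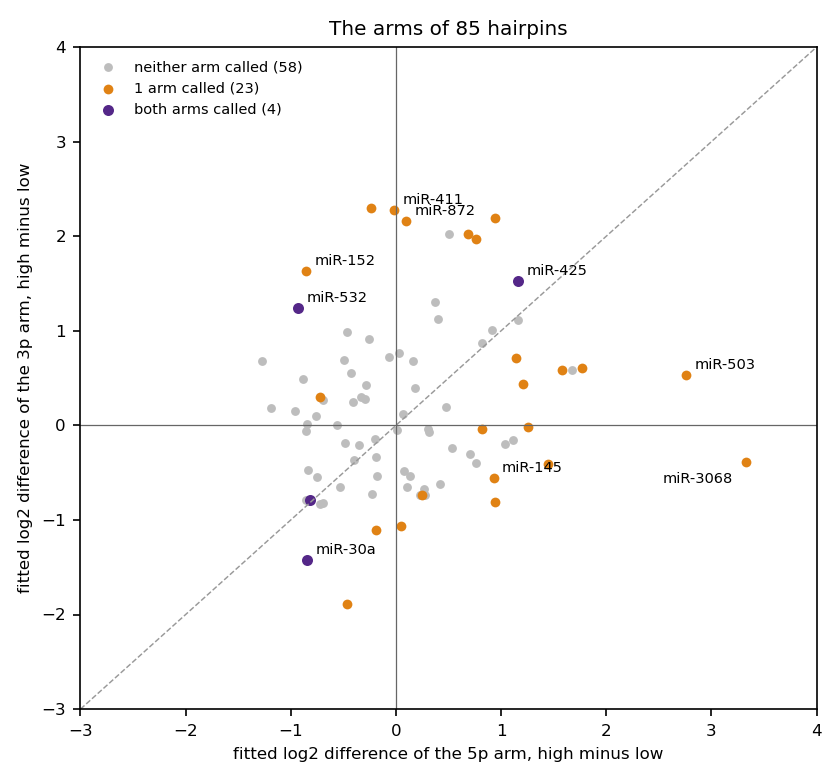
Fitted log2 difference of the 3p arm against that of the 5p arm for 85 hairpins, with grey for neither arm called, orange for 1 and purple for both. The dashed line marks equal differences. Points do not follow the line (Pearson r 0.152), and miR-3068, miR-411, miR-872 and miR-503 lie near the axes. In many hairpins the lower arm rests on few counts.

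Hairpins that lie within 10 kb of each other on the same strand of GRCr8 were grouped, and 34 groups formed in this way had at least 2 strands tested. The grouping is not complete. It left out neighbours at such a distance, among them miR-15b with miR-16, let-7b with let-7c-2, and miR-132 with miR-212. Of the 156 different strands in the groups as formed 26 were called (16.7%), near the 16.5% over all miRNAs. The called miR-16-5p, let-7b-5p and miR-181a-1-3p, which also have near neighbours, are not among them. In 3 of the groups calls went in both directions. In the miR-143 and miR-145 pair, which spans 1471 bases of chromosome 18, miR-145-5p had 237, 610, 318, 450 and 358 cpm in the high and 155, 283, 122, 306 and 180 cpm in the low libraries (0.93, SE 0.20), against the lower miR-143-3p. The log2 ratio of miR-143-3p to miR-145-5p reads was 7.83, 5.43, 6.91, 6.32 and 6.64 in the high and 8.89, 8.10, 9.69, 7.79 and 8.82 in the low libraries. It was lower in the high library of each group, although the high T0 library reached the low AP_34d library.

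The second such group was that of miR-532, already described. The third, on the X chromosome, held miR-503-5p as higher, beside miR-450a-3p that passed the filter through the high libraries alone, and miR-542-3p as lower (28.6, 29.4, 24.5, 23.0 and 23.9 cpm against 34.6, 71.3, 43.3, 42.0 and 40.5 cpm, -0.81, SE 0.23). Both miR-23/27/24 clusters were uneven as well. miR-24-3p was higher, while miR-23b-3p (-0.16, SE 0.21), miR-27b-3p (-0.53, SE 0.21), miR-23a-3p (0.08, SE 0.25) and miR-27a-3p (0.10, SE 0.20) were not called. A read of miR-24-3p cannot be assigned to either cluster.

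Among strands with the same seed, let-7b-5p and miR-98-5p of the let-7 family, known for timing of development and differentiation, were called in opposite directions. let-7b-5p had 1116, 1254, 1803, 1630 and 1900 cpm in the high and 957, 942, 704, 863 and 834 cpm in the low libraries (0.82, SE 0.22). miR-98-5p had 306, 236, 295, 239 and 215 cpm against 436, 459, 499, 392 and 339 cpm (-0.72, SE 0.17). Neither overlapped. The other 16 of 18 let-7 strands were not called, and the summed level of the family was 21919 to 27079 cpm in the high and 23749 to 30101 cpm in the low libraries.

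The most abundant miRNA, miR-10b-5p, known from trunk and limb tissue through its place in a Hox cluster, took 34.5, 17.8, 10.0, 10.2 and 11.1% of reads in the high and 21.9, 51.8, 16.97, 37.2 and 12.2% in the low libraries. It was lower in the high library of 4 groups and higher in T0 (-1.19, SE 0.54, adjusted p = 0.156 in edgeR), and miR-10a-5p of a sister cluster had the same pattern (-1.28, SE 0.48, adjusted p = 0.102). The remaining miRNAs among the 10 most abundant were miR-22-3p (-0.24, SE 0.28) and miR-26a-5p (-0.29, SE 0.21), whose sign changed with the scaling, miR-378a-3p (-0.67, SE 0.29) and miR-27b-3p, none of them called, with miR-30a-5p and miR-143-3p as the called ones. Together the 39 higher miRNAs made up 0.64 to 1.09% of reads in the low and 2.41 to 5.56% in the high libraries, on which they were chosen, and the 20 lower ones 10.7 to 19.6% and 7.28 to 12.3%.

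Set beside the 5 groups of the study, the libraries of a group differed by more than the groups did. The median absolute log2 difference over the tested miRNAs was 0.682 between the libraries of a group and 0.427 between group means, and for the 59 called miRNAs, chosen on the former, it was 1.35 and 0.388. No test was made of this, and a mean of 2 libraries varies less than a library. With high or low as a term, edgeR called none, or 0.0%, of the miRNAs among the 5 groups tested together, with a smallest adjusted p of 0.444 and 37 with an unadjusted p under 0.05. Without the term it also called 0, with 15 unadjusted. limma-voom called 0 and DESeq2 called 6 with the term.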

How the data were processed

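Small RNA libraries (TruSeq) of 10 rat tissue samples were sequenced on an Illumina HiSeq instrument. The authors demultiplexed the reads (CASAVA 1.8 in the submitters' processing notes), trimmed adapters, discarded short reads, aligned to rn4 and rat miRBase sequences and counted them with miRDeep2, and they deposited raw counts per library. A read can count at several precursors, so the largest count of each of the 723 mature names was used (35 names have several precursors). The series-wide matrix, whose 20 value columns were not needed beside the counts, was not used.

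The library with the larger miR-1-3p share in each group was high. The filter (1 cpm or more, 5 libraries or more) kept 359 names with 99.97% of reads and removed 364, of which 144 had no count, and 358 were tested without miR-1-3p. edgeR 4.0.16 (R 4.3.3) was fitted with TMM factors, group as a block, and Benjamini-Hochberg adjustment. Alternatives used DESeq2 1.42.0 and limma 3.58.1, and tables and figures Python 3.11.15 (matplotlib 3.10.9, scipy 1.17.1, numpy 2.4.6, pandas 2.3.3). Within-group log2 differences carry a prior count of 2. The fit was checked on simulated counts. Alternatives changed the tool, the scaling, the filter, the treatment of several precursors and the blocks, or left out a pair of libraries. Standard errors are those of the fit.

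Named were miR-1-3p, the 12 largest called differences in each direction with 1 sign in all groups, the 10 most abundant miRNAs, the 5 most like miR-1-3p, all skeletal muscle and slow-twitch strands and the called members of 17 lists. Any other was named after its values were seen. The libraries, members and lists were chosen with earlier results of these data known.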

Additional observations from a re-analysis of the deposited data

Results flagged for a closer look

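Of 52 named miRNAs and measures examined for a group that lies far from the other 4 in its high minus low log2 difference, 6 were picked out, where chance alone picks about 1 in 20. miR-138-5p was at -1.14 in T0 against 2.87 to 3.82 in the other groups. miR-10a-5p was at 1.15 in T0 against -2.23 to -1.35. miR-30a-5p was at -0.081 in T0 against -1.17 to -0.88. miR-376a-5p was at 4.10 in AP_1h against 1.60 to 2.31, where the low library is near the floor of 3 counts. miR-30c-2-3p was at -0.15 in AP_1h against -1.06 to -0.83. miR-133b-3p was at 0.25 in PLA_34d against 0.62 to 0.70. T0 accounts for 3 of the 6, and its high library is the shallowest of all.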

How the results depend on the processing

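The 59 calls became 89 with DESeq2 and stayed between 45 and 74 under the other settings that kept all 10 libraries, and between 22 and 61 with a pair left out. The 39 higher calls ran from 15 to 38 with a pair left out. The 20 lower calls became 39 with DESeq2, 2 with library size only and 13 with a mean of at least 100 counts, and ran from 5 to 23 with a pair left out. The share of higher calls was 66.1% and became 96.4% with library size only. All 38 called and named miRNAs kept their direction under every alternative that tested them, and 11 kept their call under every one. The call was kept by 14 without the AP_34d pair, 20 without PLA_1h, 26 without PLA_34d, 28 without AP_1h, 32 without T0 and 24 with library size only. Signs that turned were those of uncalled miRNAs. With library size only, miR-22-3p was at 0.17, miR-133a-3p at 0.36 and miR-26a-5p at 0.14. miR-133a-3p was also at 0.11 with a mean of at least 100 counts and ran from -0.24 to 0.13 with a pair left out (0.13 without PLA_1h, 0.013 without PLA_34d). miR-133a-5p was at -0.0304 with DESeq2, -0.0305 with its size factors in edgeR, -0.0265 with miR-1-3p removed before scaling, -0.0307 with no filter, -0.0400 with summed counts and -0.0688 with no group block, and ran from -0.34 to 0.16 with a pair left out (-0.34 without AP_1h, -0.18 without T0). The cause was not tested.

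With the replicate block the calls were 74. Nothing in the labels says what a replicate number shares, and the numbers were not taken to pair the libraries. Deviations of same-numbered libraries correlated between -0.538 and 0.583, over 0.1 in 4 of 10 pairs of groups, but with 2 libraries a group the sign only repeats which number was high, so this shows nothing about pairing beside the split. The 0 calls among the 5 groups became 6 with DESeq2 and 10 with no filter, stayed at 0 with the replicate block, and ran from 0 to 7 with a library left out (7 without AP_1h replicate 2, 1 without PLA_34d replicate 2). The depth difference stayed negative under all settings, without passing a threshold that 5 pairs cannot reach. With 5 pairs and 4 residual degrees of freedom, miRNAs near the floor of 3 counts are the least certain.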

Other observations

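Over the 323 miRNAs with a RefSeq sequence, the log2 difference between high and low libraries had a Pearson r of -0.050 with GC content, -0.063 with length and -0.196 with level, as a description across miRNAs of the same libraries. By the first base of the mature strand, chosen after the values were seen, the 25 that begin with G had a median of 0.93, with 9 called higher and 0 lower, and include miR-145-5p, miR-376a-5p and miR-376b-5p. The 139 that begin with U had a median of -0.04 (16 higher and 9 lower), the 89 with A -0.14 (5 and 3) and the 70 with C 0.16 (4 and 6), where 34 and 18 of all 323 were called higher and lower. By the last base, the medians of the 4 kinds lay between -0.07 and 0.01.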
